A study of Homo sapiens and Mus musculus with 8 samples.

Results

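The interferon response genes described here are 35 human genes that interferons induce through the transcription factor complex ISGF3. They were found by matching the Ensembl identifiers of the deposited table of raw counts to a list of symbols, and 35 of 35 were present among its 60483 genes. All 35 also reached at least 1 CPM (a gene's count scaled to a common library total) in at least 2 libraries, the filter that left 16070 genes for testing. Interferons bind receptors whose kinases, JAK1 and TYK2, activate the transcription factor complex ISGF3, which contains STAT2 and IRF9 and binds interferon-stimulated response elements (ISREs) in promoters. The genes it switches on encode proteins that sense, bind or degrade viral RNA, block the entry or release of virus particles, or tag proteins with the ubiquitin-like ISG15. Many cancer cell lines hold part of this set at a steady level with no interferon added.

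RNA was sequenced from KM12 and LS174T, 2 established lines of human colorectal cancer, both cultured and grown as tumors in mice (CDX tumors, here called xenografts). KM12 was represented by the parental line, with the genotype GNASR201H, a mutation that keeps the G protein subunit Gαs active, and by a GNAS knock-out line. LS174T was represented by GNAS R201H cells labelled Dox (-) and Dox (+), and the same 4 states were sequenced from xenografts. Each of the 8 groups is 1 library, so nothing measures the spread between separate cultures or mice of a group. No other treatment is given. The labels do not say what Dox switches on, whether the knock-out line is 1 clone, or the strain and age of the mice, and LS174T cells with Dox but without the R201H gene were not analysed here. In LS174T, what Dox does by itself and what GNAS does cannot be told apart.

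GNAS, the targeted gene, was read first. Its level was 1119 CPM in the KM12 parental culture against 298 in the knock-out culture, and 1390 against 903 in the xenografts. In LS174T it was 1746 CPM with Dox against 691 without in culture, and 691 against 586 in the xenografts. GNAS was thus higher in the parental or Dox (+) library, here taken as active GNAS, of each of 4 pairs. The xenograft pairs differed less than the culture pairs. Depth ran from 15924846 to 37735085 counts a library. The colon epithelial marker EPCAM lay between 518 and 763 CPM everywhere, while the keratin genes KRT8 and KRT18 fell in LS174T xenografts (log2 differences of -2.65 ± 0.20 and -2.36 ± 0.19; edgeR, adjusted p = 1.70e-04 and 1.93e-04). Fibroblast markers summed to 264 CPM in the KM12 parental xenograft, 220 of it COL3A1, against 3.49 to 12.8 CPM in the other 7 libraries. COL1A1 and LUM were also high there, at 29.2 and 10.0 CPM, while COL1A2 read 3.73 against 3.45 CPM in the knock-out xenograft. The other markers were low there: PDGFRA had 0 counts, THY1 read 0.0573 and DCN 0.229 CPM. PDGFRB, at 0.459 CPM, was lower there than in any other library. Below, the fibroblast markers of this library are COL3A1, COL1A1 and LUM. All 8 colon epithelial markers were detected in every library, and their sum ran from 4652 CPM in the LS174T Dox (+) xenograft to 23230 CPM in the Dox (-) culture. Endothelial markers summed to 0.322 to 1.83 CPM. Of these, CDH5 was at most 0.0293 CPM in the cultures and 0.448 to 1.02 CPM in the xenografts. TEK was at most 0.0688 CPM in the cultures and 0.194 to 0.244 CPM in the xenografts. PECAM1, VWF and CLDN5 overlapped between cultures and xenografts, and KDR had 0 counts. The 8 leukocyte and macrophage markers summed to 7.95 to 769 CPM, of which LYZ, also made by gut epithelium, was 766 CPM at the highest (KM12 knock-out xenograft); PTPRC was at most 0.0407 CPM and TYROBP had 0 counts in every library. Mouse genes were not counted, so low levels of these human markers do not show that host cells were few. The part of these marker differences in the results was not tested. In these bulk samples, fewer cells of a type and less RNA per cell cannot be told apart.

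Matches to the core of the element that ISGF3 binds were found in the promoters of many members. Of these promoters 10 are printed, chosen by hand from members called in a test below. RefSeq promoter windows (GRCh38.p14, 250 bases before to 50 after a gene's start) were matched by symbol to 28 of the 35 members; IFIT2, IFITM2, IRF7, MX2, OAS2, OASL and USP18 had none. The core of the ISRE was searched as GAAANNGAAA on both strands, overlapping matches included. It was present in a window of 20 of the 28 members (71.4%), against 1195 of all 27305 symbols with windows (4.38%); by window, these were 24 of 36 and 1255 of 35116 (3.57%). The members' windows held 39 distinct matches, and 14 members had at least 2. Capitals mark the matches, and TTTCNNTTTC is the same element on the other strand. The windows of OAS3 and IFITM1 each held 2 matches, of which 1 is printed. Each stretch is written 5′ to 3′ on the gene's strand.
ISG15: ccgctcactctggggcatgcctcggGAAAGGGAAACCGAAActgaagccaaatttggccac
IFIT1: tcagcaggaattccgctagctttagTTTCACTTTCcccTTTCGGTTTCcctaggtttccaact
IFI6: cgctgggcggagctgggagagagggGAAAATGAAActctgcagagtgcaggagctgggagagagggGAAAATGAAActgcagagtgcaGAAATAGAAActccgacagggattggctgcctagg
BST2: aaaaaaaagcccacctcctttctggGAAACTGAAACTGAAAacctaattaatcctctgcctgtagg
IFI27: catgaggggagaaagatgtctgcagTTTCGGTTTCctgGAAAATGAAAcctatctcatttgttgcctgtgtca
SAMD9: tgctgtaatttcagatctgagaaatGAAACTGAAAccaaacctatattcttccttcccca
OAS3: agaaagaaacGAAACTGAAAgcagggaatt
IFITM1: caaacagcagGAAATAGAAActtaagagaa
IFITM3: gGAAAAGGAAActgttgaGAAACCGAAAct
PARP9: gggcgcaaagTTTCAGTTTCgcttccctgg

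On GRCh38.p14 these lie at chr1:1013359-1013419 (ISG15, plus strand), chr10:89392482-89392544 (IFIT1, plus), chr1:27672251-27672373 (IFI6, minus), chr19:17405720-17405785 (BST2, minus), chr14:94110603-94110675 (IFI27, plus), chr7:93118081-93118140 (SAMD9, minus), chr12:112938321-112938350 (OAS3, plus), chr11:313990-314019 (IFITM1, plus), chr11:320884-320913 (IFITM3, minus) and chr3:122564322-122564351 (PARP9, minus). In ISG15 and BST2 the 2 matches overlap, and in IFI6 the same 10 bases occur at 2 of its 3 matches. The PARP9 match is also the match in the window of DTX3L, its neighbour on the other strand, so these 2 members share 1 site. The windows of HERC6, IFI35, IRF1, IRF9, OAS1, SAMD9L, STAT2 and XAF1 held no match, which says only that these letters are not in these 300 bases. Members with and without a match both hold genes that passed the tests below: in the comparison of the lines' xenograft responses, 14 of 20 with a match and 3 of 8 without were called, all of them higher in KM12, as were 6.15% of all tested genes.

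LS174T cells in culture held the set at high levels, and KM12 cells in culture held it low. The median over the 35 members was 28.8 and 28.6 CPM in the LS174T cultures, without and with Dox, against 1.99 and 2.99 CPM in the parental and knock-out KM12 cultures. In the xenografts the lines were close, with medians of 9.11 and 9.37 CPM in KM12 and 8.42 and 11.2 CPM in LS174T. The highest level of a member was in an LS174T culture for 24 of the 35 and in a KM12 culture for 2. Every member was above 1 CPM in both LS174T cultures, whereas 11 and 7 members were below it in the KM12 cultures. HERC5 had 1 and 3 counts there and XAF1 3 and 1.

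**Figure D1:**
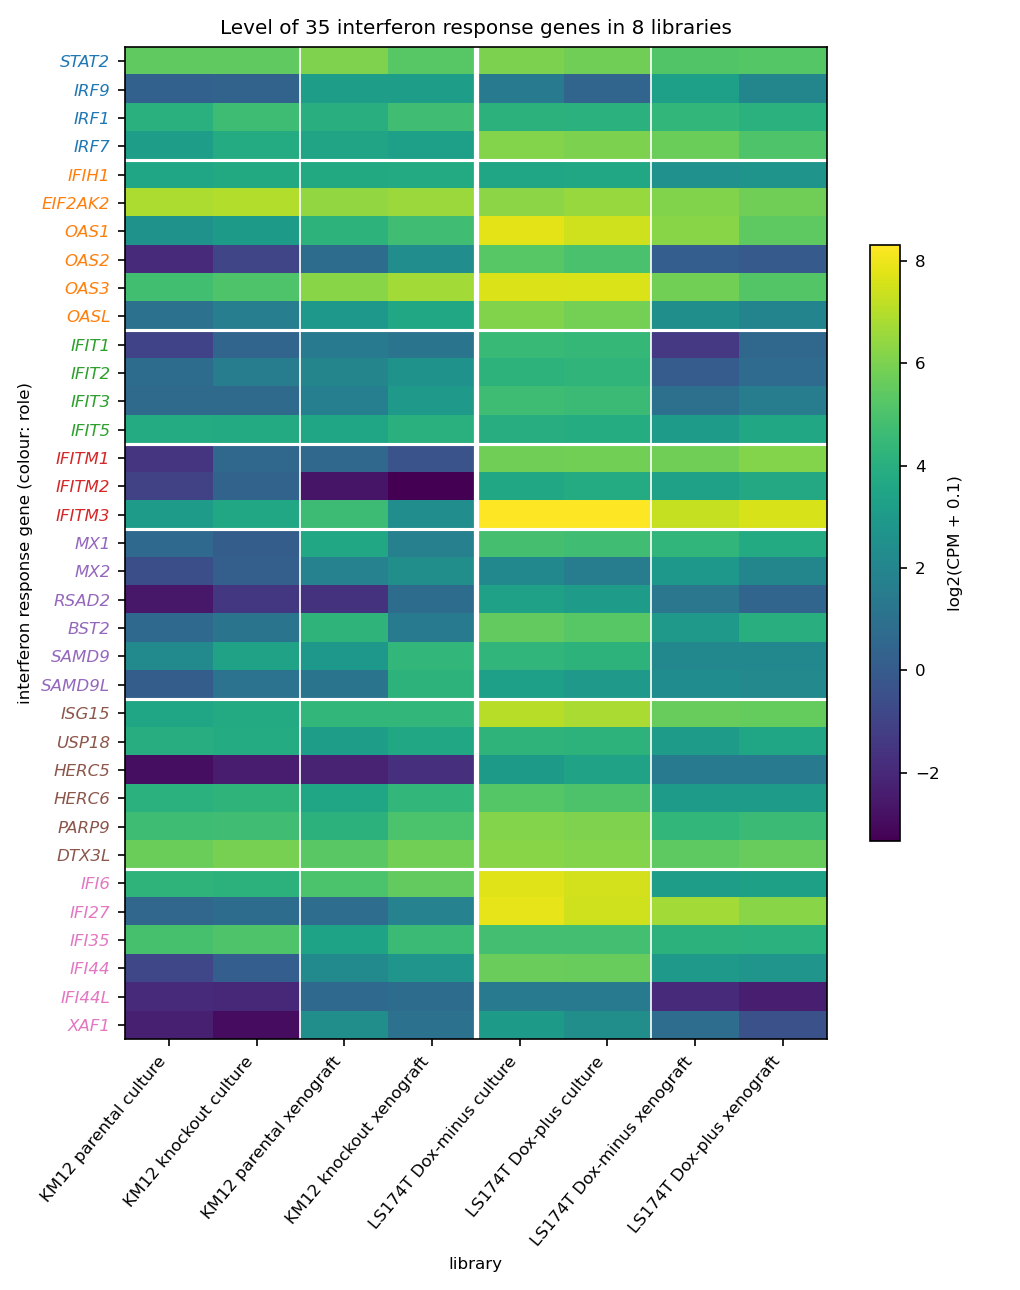
Level of each of the 35 interferon response genes (rows, coloured by role) in the 8 libraries (columns), as log2(CPM + 0.1) on a colour scale. The LS174T cultures are brightest over most rows, with a median of 28.8 and 28.6 CPM, and the KM12 cultures darkest, with 1.99 and 2.99 CPM.

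The quasi-likelihood test of edgeR was used throughout. Its p-values were adjusted over all 16070 genes by the Benjamini-Hochberg method, and the threshold was an adjusted p below 0.05. The libraries of the 2 GNAS states of a line in culture or as xenograft served as its 2 libraries, so the error takes in any effect of GNAS and of the mouse. In culture, 24 of the 35 members were lower and 1 higher in KM12 than in LS174T, where 22.8% of all tested genes were lower and 22.6% higher. The median log2 difference, KM12 minus LS174T, was -3.27 over the members and 0.00 over all tested genes. In the xenografts 8 members were lower and 10 higher in KM12, against 19.6% and 18.5% of all genes, and the members' median was 0.16 beside 0.03 over all genes. Leaving out each library in turn gave 21 to 29 calls in culture and 13 to 24 in the xenografts.

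Between xenograft and culture, most called members were higher in the xenografts of KM12 and lower in those of LS174T. In KM12, 13 members were higher in the xenografts and 1 was lower, against 14.7% and 15.6% of all tested genes, with a median log2 difference of 1.11 over the members and 0.00 over all genes. In LS174T, 1 member was higher and 23 were lower in the xenografts, against 23.7% and 22.4% of all genes, with a median of -1.37 beside 0.04. The test of the difference between the lines' responses called 20 members higher and 1 lower in KM12, against 6.15% and 7.93% of all genes, with a median of 2.08 beside 0.01. IFI44, IFI44L, IFI6, IFIT3, ISG15, OAS1, OAS2, OAS3, OASL and XAF1, 10 members in all, were called higher in the xenografts of KM12 and lower in those of LS174T, a pattern met by 0.697% of all tested genes. Over both lines together, with each xenograft set against the culture of the same line and GNAS state, 1 member was higher (IRF9) and 1 lower (IFI35), against 12.6% and 13.5% of all genes. The LS174T culture libraries enter both the comparison of the lines in culture and that of LS174T xenografts with culture, so the 2 sets of values are not independent.

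The KM12 count rested on its culture libraries. It fell below 14 members without either KM12 culture. It rose above 14 without either KM12 xenograft, the parental one with the fibroblast markers and the knock-out one alike. Each of these fits left 1 library in a group. OAS3, OASL, IFI44, IFI44L and XAF1 were called in each of the 8 fits that left out 1 library. The count for the difference between the lines went from 21 to 13 without either KM12 culture and to 12 without either LS174T culture; 12 members were called in each of the 8 fits. In LS174T 15 of the 24 calls were made in each of the 8. Over both lines, the count of 2 members became 0 when either LS174T pair was left out.

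**Figure D2:**
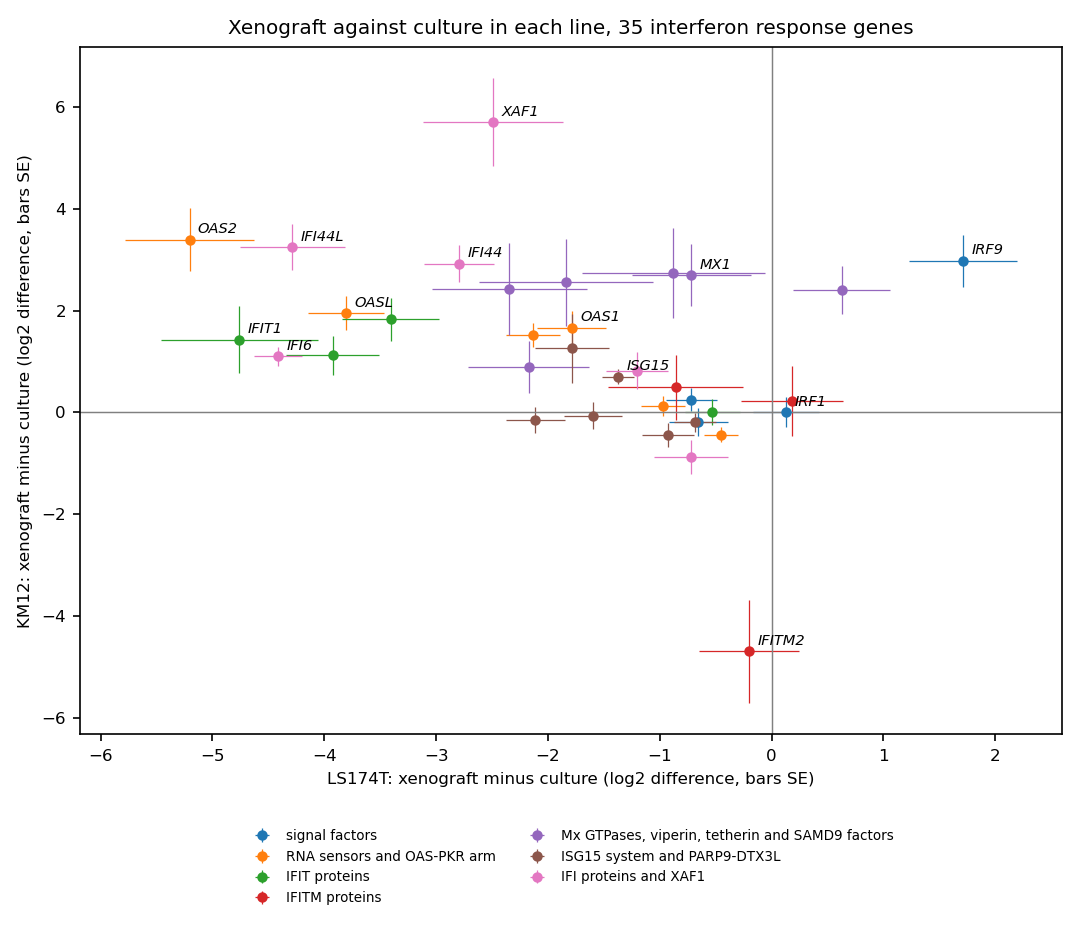
Log2 difference between xenograft and culture in LS174T (horizontal axis) and KM12 (vertical axis) for the 35 members, with bars of 1 SE and colours by role. Most points lie left of 0 and above 0, IRF9 is right of 0 and above it, and IFITM2 lies at -4.69 in KM12.

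Among the signal factors, IRF9, the DNA-binding subunit of ISGF3, was higher in every xenograft than in any culture. It read 1.10 and 1.20 CPM in the parental and knock-out KM12 cultures and 9.11 and 9.13 CPM in their xenografts. In LS174T, without and with Dox, it read 2.7 and 1.29 CPM in culture and 9.24 and 3.88 CPM in the xenografts. IRF9 rose by 2.98 ± 0.51 in log2 in KM12 (edgeR, adjusted p = 0.00553) and by 1.71 ± 0.48 in LS174T (adjusted p = 0.0211), and the 2 responses did not pass the test of their difference (1.27 ± 0.68, adjusted p = 0.251). Its log2 difference over both lines was 2.33 ± 0.38 (adjusted p = 0.0154). The last call was lost without either LS174T pair (adjusted p = 0.051 without the Dox (-) pair and 0.0575 without the Dox (+) pair). The KM12 call was lost without the parental culture (0.0509) or the knock-out culture (0.0527), and the LS174T call without the Dox (+) culture (0.143) or the Dox (-) xenograft (0.142). An exon of IRF9 overlaps AL136295.5 on the same strand, and reads there cannot be assigned to either gene.

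STAT2, the transactivating subunit of ISGF3, was present throughout, at 34.7 to 65.2 CPM. It fell in LS174T xenografts by 0.72 on the log2 scale (SE 0.23; edgeR, adjusted p = 0.0323), a call lost in 6 of the 8 fits that left out 1 library, where adjusted p reached 0.164 without the LS174T Dox (-) culture, and with a filter of 5 CPM (0.0566). IRF7, which amplifies interferon production, read 8.77 and 14.3 CPM in the KM12 cultures and 10.9 and 9.37 CPM in their xenografts. In LS174T it read 70.5 and 63.8 CPM in culture and 51.5 and 33.8 CPM in the xenografts. IRF7 was lower in KM12 in both settings, by log2 differences of -2.54 ± 0.28 (adjusted p = 2.71e-04) and -2.08 ± 0.28 (adjusted p = 9.76e-04), with no overlap between the lines. IRF1, an activator induced mainly by interferon gamma, stayed between 15.4 and 26.4 CPM and passed no test.

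The RNA sensors and the OAS and PKR arm held some of the steepest contrasts. OAS1, OAS2 and OAS3 make 2-5A when they meet double-stranded RNA, which activates RNase L, and OASL is their relative that assists RIG-I. OAS2 was at 0.172 and 0.439 CPM in the KM12 cultures and at 1.60 and 5.00 CPM in their xenografts. In LS174T it was at 39.2 and 31.0 CPM in culture and at 1.02 and 0.873 CPM in the xenografts. The lines did not overlap in either setting, and their order was turned around: in log2, KM12 minus LS174T was -6.79 ± 0.63 in culture (edgeR, adjusted p = 1.29e-04) and 1.81 ± 0.55 in the xenografts (adjusted p = 0.0342). OAS2 rose by 3.40 ± 0.61 in KM12 xenografts (adjusted p = 0.00672), on 131 counts against 20, and its log2 difference in LS174T was -5.20 ± 0.58 (adjusted p = 5.61e-04). The KM12 call was lost without the parental culture (adjusted p = 0.0523), and the xenograft call between lines in 5 of the 8 fits that left out 1 library (up to 0.206 without the KM12 knock-out xenograft) and with limma-voom (0.0881).

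OAS3 read 27.7 and 34.6 CPM in the KM12 cultures, 74.2 and 104 CPM in their xenografts, 207 and 199 CPM in the LS174T cultures and 55.6 and 36.9 CPM in theirs. The 4 pairs of libraries did not overlap one another. Its mean rose 2.86-fold in KM12 xenografts (log2 1.52 ± 0.24; edgeR, adjusted p = 0.0042) and was 4.39-fold higher in LS174T culture than in the xenografts (log2 -2.13 ± 0.24, adjusted p = 5.83e-04). OASL followed the same order, at 1.99 and 2.99, 7.17 and 12.2, 68.4 and 58.7, and 5.41 and 3.64 CPM. It rose by 1.96 ± 0.33 in KM12 (adjusted p = 0.00532), with a log2 difference of -3.81 ± 0.34 in LS174T (adjusted p = 2.65e-04). In the xenografts OAS3 and OASL were higher in KM12, by 0.95 ± 0.24 and 1.10 ± 0.32 in log2 (adjusted p = 0.0148 and 0.0288); the OAS3 call was lost without the KM12 knock-out or LS174T Dox (+) xenograft (0.0508 and 0.0825) and that of OASL in 4 of the 8 fits (up to 0.153).

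OAS1 differed from these in staying higher in LS174T. It read 6.12 and 8.00 CPM in the KM12 cultures and 18.2 and 26.6 CPM in their xenografts, against 226 and 176 CPM in the LS174T cultures and 74.5 and 41.9 CPM in their xenografts. In culture the LS174T mean was 28.5-fold higher (log2 -4.83 ± 0.36 for KM12 minus LS174T; edgeR, adjusted p = 5.47e-05). In the xenografts it was 2.60-fold higher (log2 -1.38 ± 0.31, adjusted p = 0.0106, and 0.0547 without the LS174T Dox (-) xenograft). OAS1 rose by 1.66 ± 0.32 in KM12 xenografts (adjusted p = 0.00924, and 0.0717 without the parental culture), while its log2 difference in LS174T was -1.79 ± 0.31 (adjusted p = 0.00317). Its exons overlap the antisense transcript AC004551.1, and nothing in the library protocol marks strand.

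IFIH1, which encodes the sensor MDA5, was level across the KM12 libraries at 11.8 to 13.7 CPM and the LS174T cultures at 11.4 and 12.5 CPM. In the LS174T xenografts it read 5.86 and 6.31 CPM, below every other library, and it fell by 0.97 on the log2 scale (SE 0.20; edgeR, adjusted p = 0.00538). EIF2AK2, the RNA-activated kinase PKR, was the 1 member called higher in KM12 culture. It read 117 and 124 CPM in the KM12 cultures against 76.8 and 90.6 CPM in LS174T, a log2 difference of 0.52 ± 0.15 (adjusted p = 0.0235), and 84.4 and 92.8 CPM against 67.6 and 54.6 CPM in the xenografts (0.54 ± 0.15, adjusted p = 0.0252). The culture call was lost in 4 and the xenograft call in 5 of the 8 fits that left out 1 library, with adjusted p of up to 0.18 and 0.112, and both with GNAS state as a term in each line (0.0728 and 0.0687). All 6 members of this arm fell in LS174T xenografts, EIF2AK2 by the least (0.45 on the log2 scale, SE 0.15, adjusted p = 0.0398, lost in 5 of 8 fits, up to 0.211, with GNAS state as a term, 0.058, and with a filter of 5 CPM, 0.0767).

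The IFIT proteins bind viral RNA that lacks the cap marks of the host. IFIT1 read 0.413 and 1.29 CPM in the KM12 cultures, 2.58 and 2.09 CPM in their xenografts, 22.6 and 21.2 CPM in the LS174T cultures and 0.285 and 1.36 CPM in theirs. The LS174T cultures stood above the other 6 libraries; the KM12 cultures and the LS174T xenografts overlapped, and the KM12 xenografts lay above both. The mean was 26.6-fold higher in LS174T culture than in the xenografts (log2 -4.76 ± 0.70 for xenograft minus culture; edgeR, adjusted p = 0.00163). The KM12 response of IFIT1 did not pass (1.43 ± 0.66, adjusted p = 0.136).

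IFIT2 and IFIT3 were also highest in the LS174T cultures, followed by the KM12 xenografts. The KM12 cultures lay above the LS174T xenografts in IFIT2 and below them in IFIT3. IFIT2 read 1.62 and 2.81, 3.78 and 5.87, 18 and 19.5, and 0.936 and 1.55 CPM, with the libraries listed as for IFIT1. IFIT3 read 1.51 and 1.49, 3.10 and 7.57, 26.0 and 24.0, and 1.87 and 2.86 CPM. Both fell in LS174T xenografts (log2 differences of -3.92 ± 0.42 and -3.40 ± 0.43; edgeR, adjusted p = 4.51e-04 and 8.35e-04). IFIT3 rose in KM12 xenografts by 1.83 ± 0.42 (adjusted p = 0.0158), a call lost without the parental culture (0.0914) or the knock-out culture (0.0996), and IFIT2 was higher in KM12 than in LS174T xenografts by 1.97 ± 0.40 (adjusted p = 0.00621). IFIT5, which binds RNA with a 5′ phosphate, kept between 8.42 and 16.4 CPM and passed no test. IFIT2 overlaps LIPA on the other strand.

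The IFITM proteins, which block virus fusion at cell membranes, separated the lines in both settings. IFITM1 read 0.241 and 1.44 CPM in the KM12 cultures and 1.38 and 0.680 CPM in their xenografts. In LS174T it read 55.2 and 55.7 CPM in culture and 55.4 and 70.4 CPM in the xenografts. KM12 minus LS174T was -6.00 ± 0.60 in log2 in culture and -5.95 ± 0.62 in the xenografts (edgeR, adjusted p = 2.76e-04 and 4.43e-04), and its responses to the xenograft setting differed between the lines by 0.04 ± 0.82.

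IFITM3 read 8.53 and 12.3 CPM in the KM12 cultures, 24.5 and 5.00 CPM in their xenografts, 311 and 314 CPM in the LS174T cultures and 152 and 193 CPM in theirs. Every LS174T library was above every KM12 library (log2 -4.90 ± 0.71 in culture and -3.56 ± 0.68 in the xenografts; edgeR, adjusted p = 0.00204 and 0.0074). The xenograft call was lost with GNAS state as a term in each line (adjusted p = 0.101) and with no filter on low counts (0.0597). The higher of the KM12 xenografts was the parental library, where COL3A1, COL1A1 and LUM were high. The part of these markers in its IFITM3 level was not tested. IFITM2 lay between 9.89 and 14.2 CPM in LS174T. In KM12 it had 52 counts over the 2 cultures and 1 over the 2 xenografts, so that the culture level was 31.3-fold higher (95% exact interval 5.37 to 1260, counting error only). This was the only member called lower in KM12 xenografts (adjusted p = 0.0122, and 0.0579 and 0.0511 without the knock-out culture or xenograft). The IFITM genes are close copies, and exons of IFITM1 and IFITM2 overlap on the same strand, so how the counts were split between them is uncertain.

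The Mx proteins are GTPases that trap virus capsids. MX1 read 1.44 and 0.967 CPM in the KM12 cultures, 12.5 and 3.20 CPM in their xenografts, 28.8 and 26.5 CPM in the LS174T cultures and 19.8 and 13.8 CPM in theirs. MX1 rose by 2.7 ± 0.61 in KM12 xenografts (edgeR, adjusted p = 0.0166; 0.0771 and 0.12 without the parental or knock-out culture), and its level was lower in KM12 culture than in LS174T culture by a log2 difference of -4.52 ± 0.63 (adjusted p = 0.00112). MX2, better known for acting on retroviruses at the nuclear pore, was low in KM12 culture alone. It read 0.585 and 1.06, 3.5 and 5.24, 4.24 and 2.98, and 7.24 and 3.88 CPM in the same order, and rose by 2.40 ± 0.47 in KM12 xenografts (adjusted p = 0.00905; 0.0742 without the parental culture).

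RSAD2 encodes viperin, an enzyme that makes a chain-terminating nucleotide. It had 11 counts over both KM12 cultures against 578 in LS174T, where it read 9.85 and 8.52 CPM, a 52.9-fold difference (95% exact interval 29.4 to 107). In the LS174T xenografts RSAD2 read 2.32 and 1.26 CPM (log2 -2.35 ± 0.69; edgeR, adjusted p = 0.0259), a call lost when any 1 of the 4 LS174T libraries was left out (adjusted p of 0.0697 to 0.132). BST2, or tetherin, which holds budding viruses at the cell surface, read 1.44 and 2.11, 18.5 and 2.72, 45.9 and 38.4, and 7.69 and 15.9 CPM. The KM12 parental xenograft stood apart from the knock-out xenograft, and BST2 passed only the comparison of the cultures (log2 -4.56 ± 0.89, adjusted p = 0.00635; 0.0651 without the parental and 0.0536 without the knock-out KM12 culture, 0.0641 with no filter on low counts and 0.0532 with GNAS state as a term).

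SAMD9 and its paralog SAMD9L restrict poxviruses. SAMD9 read 4.57 and 10.3, 7.11 and 20.5, 19.7 and 18.2, and 4.19 and 4.22 CPM, and SAMD9L 0.963 and 2.02, 2.12 and 18, 9.42 and 7.65, and 4.96 and 4.32 CPM. In both genes the KM12 knock-out libraries were above the parental libraries. SAMD9 fell in LS174T xenografts (log2 -2.17 ± 0.54; edgeR, adjusted p = 0.0135) and was higher in KM12 than in LS174T xenografts (1.72 ± 0.54, adjusted p = 0.0381); these calls were lost in 4 and 5 of the 8 fits, and the second reached an adjusted p of 0.199 without the KM12 knock-out xenograft and was lost with limma-voom (0.0779). SAMD9L passed no test, with adjusted p of 0.0507 between the cultures.

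ISG15, the ubiquitin-like modifier, was among the most evenly measured members. It read 11.7 and 13.6 CPM in the KM12 cultures and 20.8 and 20.5 CPM in their xenografts. In LS174T it read 133 and 112 CPM in culture and 47.9 and 46.8 CPM in the xenografts. No 2 of these 4 pairs overlapped. ISG15 rose 1.63-fold in KM12 (log2 0.70 ± 0.14; edgeR, adjusted p = 0.0103), and its LS174T culture mean was 2.59-fold above the xenografts (log2 -1.37 ± 0.14 for xenograft minus culture, adjusted p = 4.10e-04). It was 9.69-fold higher in LS174T in culture and 2.29-fold higher in the xenografts (adjusted p = 6.18e-06 and 5.28e-04). The KM12 call was lost without the parental culture (0.0955) or the knock-out culture (0.0538).

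HERC5, the ligase that attaches ISG15, was near absent from KM12, with 4 counts over both cultures and 6 over both xenografts. In LS174T it read 7.95 and 10.2 CPM in culture and 2.65 and 2.62 CPM in the xenografts, where it fell by 1.79 on the log2 scale (SE 0.33; edgeR, adjusted p = 0.00375). The ratio of LS174T to KM12 was 143 in culture (95% exact interval 55.6 to 527) and 16.7 in the xenografts (7.45 to 46.4). HERC6, its relative, read 17.1 and 18.8, 11.8 and 20.7, 37.2 and 33.3, and 8.10 and 8.20 CPM. HERC6 fell in LS174T xenografts (log2 -2.11 ± 0.26; edgeR, adjusted p = 7.92e-04); the KM12 libraries were below LS174T in culture (-0.97 ± 0.25, adjusted p = 0.0147) and above it in xenografts (1.00 ± 0.26, adjusted p = 0.0181). Each of the latter calls was lost in 3 of the 8 fits that left out 1 library, with adjusted p of up to 0.0962 and 0.0878, and the culture call also with GNAS state as a term in each line (0.0588).

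USP18 removes ISG15 and damps the interferon receptor. It read between 8.30 and 19.0 CPM and passed only in LS174T, where it fell in the xenografts (log2 -0.93 ± 0.23; edgeR, adjusted p = 0.0132, lost in 3 of 8 fits, up to 0.0761). PARP9 and DTX3L form a complex that adds ADP-ribose and ubiquitin to histones and promotes the transcription of interferon targets, and they share the site printed above. PARP9 read 25.9 and 26.2, 17.5 and 32.4, 69.8 and 65.6, and 20.7 and 24.2 CPM, and DTX3L 50.7 and 60.1, 39.9 and 57.1, 74.3 and 71.0, and 42.2 and 48.1 CPM. Both fell in LS174T xenografts (log2 -1.60 ± 0.26 and -0.69 ± 0.19, adjusted p = 0.0023 and 0.0185, the latter lost in 3 of 8 fits, up to 0.112). In KM12 neither passed (adjusted p = 0.883 and 0.465). Exons of the 2 genes overlap on opposite strands, so how reads were split between them is uncertain.

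IFI6, a mitochondrial protein that opposes cell death, showed the smallest p of all members in the comparison of the lines' responses. It read 18.6 and 17.6 CPM in the KM12 cultures and 32.0 and 45.7 CPM in their xenografts. In LS174T it read 215 and 180 CPM in culture and 8.95 and 9.56 CPM in the xenografts. The LS174T culture mean was 21.3-fold above its xenografts (log2 -4.42 ± 0.21; edgeR, adjusted p = 4.64e-05), while IFI6 rose 2.15-fold in KM12 (log2 1.11 ± 0.19, adjusted p = 0.00528; 0.0551 without the knock-out culture). In culture it was 10.9-fold higher in LS174T and in the xenografts 4.20-fold higher in KM12, with no overlap (adjusted p = 1.47e-05 and 1.67e-04).

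IFI27, another mitochondrial protein, separated the lines in both settings. It read 1.31 and 1.61 CPM in the KM12 cultures, 1.66 and 3.45 CPM in their xenografts, 232 and 175 CPM in the LS174T cultures and 102 and 74.6 CPM in theirs. The LS174T mean was 140-fold above KM12 in culture and 34.6-fold above it in the xenografts (log2 -7.11 ± 0.38 and -5.09 ± 0.35 for KM12 minus LS174T; edgeR, adjusted p = 1.20e-05 and 4.32e-05). IFI27 fell in LS174T xenografts (log2 -1.20 ± 0.28, adjusted p = 0.0101, and 0.076 and 0.0683 without the Dox (-) culture or the Dox (+) xenograft).

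IFI44 and IFI44L are neighbouring genes for cytoplasmic proteins whose work is less settled. IFI44 read 0.447 and 0.996, 4.47 and 6.65, 49.5 and 48.4, and 7.61 and 6.5 CPM. It rose 7.71-fold in KM12 xenografts (log2 2.92 ± 0.36; edgeR, adjusted p = 0.00197), and the xenografts of the lines ended close to each other (KM12 minus LS174T -0.34 ± 0.31, adjusted p = 0.423). IFI44L had 10 counts over both KM12 cultures and 59 over their xenografts, and in LS174T 167 over the cultures and 6 over the xenografts. Its KM12 level was thus 9.80-fold higher in the xenografts (95% exact interval 4.97 to 21.5), and its LS174T level 20.0-fold higher in culture (9.02 to 55.4).

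XAF1, which opposes an inhibitor of apoptosis, had 4 counts in the KM12 cultures and 131 in their xenografts, a 54.4-fold difference (95% exact interval 20.8 to 203). It read 5.22 and 1.94 CPM in these xenografts, 7.95 and 5.17 CPM in the LS174T cultures and 1.67 and 0.631 CPM in the LS174T xenografts. XAF1 fell in LS174T by 2.49 on the log2 scale (SE 0.62; edgeR, adjusted p = 0.0129, and 0.079 and 0.075 without the Dox (-) culture or the Dox (+) xenograft). IFI35, a binding partner of NMI, was the member that was lower in the xenografts over both lines. It read 30.3 and 34.0, 10.5 and 24.5, 28.4 and 28.6, and 17.4 and 17.2 CPM, with a log2 difference of -0.85 ± 0.21 (adjusted p = 0.0341) that lost its call in each of the 4 fits without a pair (0.0582 to 0.114).

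HERC5, IFI27, IFITM1, IFITM2, IFITM3, IRF7, ISG15 and OAS1, 8 members, were called lower in KM12 in both cultures and xenografts, against 12% of all tested genes; the xenograft call of IFITM3 was lost under 2 alternatives, as given above, and that of OAS1 without 1 library. HERC6, IFI44L, IFI6, IFIT2, OAS2, OAS3 and OASL, 7 members, were called lower in KM12 in culture and higher in KM12 in xenografts, against 0.765% of all tested genes. As given above, some fits without a library lost the xenograft calls of HERC6, OAS2, OAS3 and OASL and the culture call of HERC6. For an order by length, CPM was divided by the merged length of all annotated exons of a gene, in kilobases. This length can exceed that of a single transcript, and the order depends on it. On this scale IFI6 led in KM12, at 20.9 in culture and 45.0 in the xenografts. IFITM3 and IFI6 led in the LS174T cultures, at 232 and 228, and their values in the 2 libraries overlapped. In the LS174T xenografts IFITM3 stood first at 128, above IFITM1 at 58.2 and ISG15 at 50.3, with no overlap between the 3, and IFI6 had come down to 10.7.

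**Figure D3:**
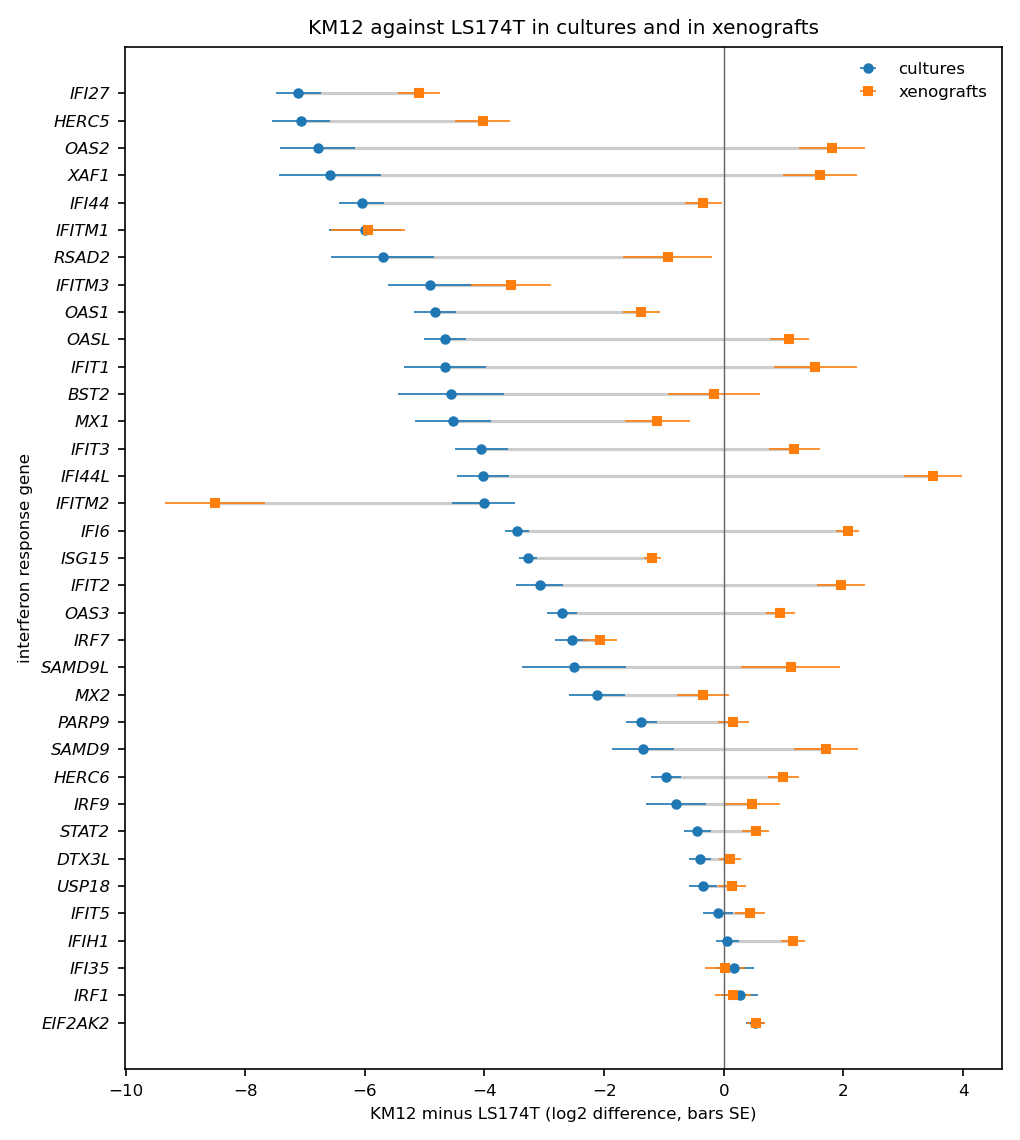
Log2 difference between KM12 and LS174T for each of the 35 members, in cultures (circles) and in xenografts (squares), with bars of 1 SE. Most circles lie far below 0, with a median of -3.27, and most squares near or above it, with a median of 0.16, while IFITM1, IFITM2, IFITM3, IFI27 and HERC5 stay below -3 in both.

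Human genes that encode interferons were close to silent. Mouse genes were not counted, so interferon expression in the host cells of the xenografts was not measured. None of 12 listed interferon genes passed the filter; the highest value was that of IFNE, 0.688 CPM in the KM12 parental xenograft, and IFNB1 was seen in 1 library, at 0.0331 CPM. Receptor and JAK-STAT genes were present in every library. Of the 9 described here, all tested, 3 rose in KM12 xenografts (IFNAR1, IFNGR2 and IL10RB) and 2 in LS174T xenografts (IFNGR2 and IL10RB), and 0 fell in either. Of all tested genes, 14.7% and 23.7% were called higher in these comparisons, so the LS174T count is near the share of all genes. IFNAR1, a subunit of the type I receptor, read 21.4 and 26.1 CPM in the KM12 cultures and 38.1 and 50.2 CPM in their xenografts, against 74.7 and 76.5 CPM and 66.3 and 63.1 CPM in LS174T. It rose by 0.90 ± 0.17 in KM12 (edgeR, adjusted p = 0.00761). The lines differed by -1.67 ± 0.17 in culture (adjusted p = 1.77e-04).

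CXCL10, a chemokine induced by interferons, read 10.4 and 12.6 CPM in the LS174T cultures and 0.0814 and 0.243 CPM in their xenografts, a 74.0-fold difference (95% exact interval 35.7 to 185). It had 0 counts in both KM12 cultures, so that LS174T was at least 120-fold higher there against a floor of 3 counts a library.

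Among 11 tested genes of RNA and DNA sensing, 2 rose and 3 fell in KM12 xenografts and 1 rose and 6 fell in those of LS174T. Over all tested genes the shares were 14.7% higher and 15.6% lower in KM12 and 23.7% and 22.4% in LS174T, and the KM12 count of 2 higher is near its share. CGAS, the sensor of DNA in the cytosol, separated the lines outright. It read 22.5 and 25.8 CPM in the KM12 cultures and 32.0 and 11.1 CPM in their xenografts, and had 0 counts in all 4 LS174T libraries, which makes KM12 at least 252-fold higher in culture and 161-fold in the xenografts against 3 counts a library. STING1, which acts after CGAS, read 0.997 and 1.52, 4.76 and 7.62, 8.72 and 5.93, and 12.5 and 16.5 CPM, and rose in both lines (log2 2.29 ± 0.38 and 0.99 ± 0.35; edgeR, adjusted p = 0.00496 and 0.0466). RIGI, the RNA sensor RIG-I, fell in LS174T xenografts (-1.35 ± 0.28, adjusted p = 0.00616) from 28.1 and 27.8 CPM to 9.81 and 12.2 CPM. MAVS, the adaptor of RIG-I and MDA5, fell in both lines (-0.61 ± 0.14 in KM12 and -0.77 ± 0.14 in LS174T, adjusted p = 0.0143 and 0.00321).

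**Figure D4:**
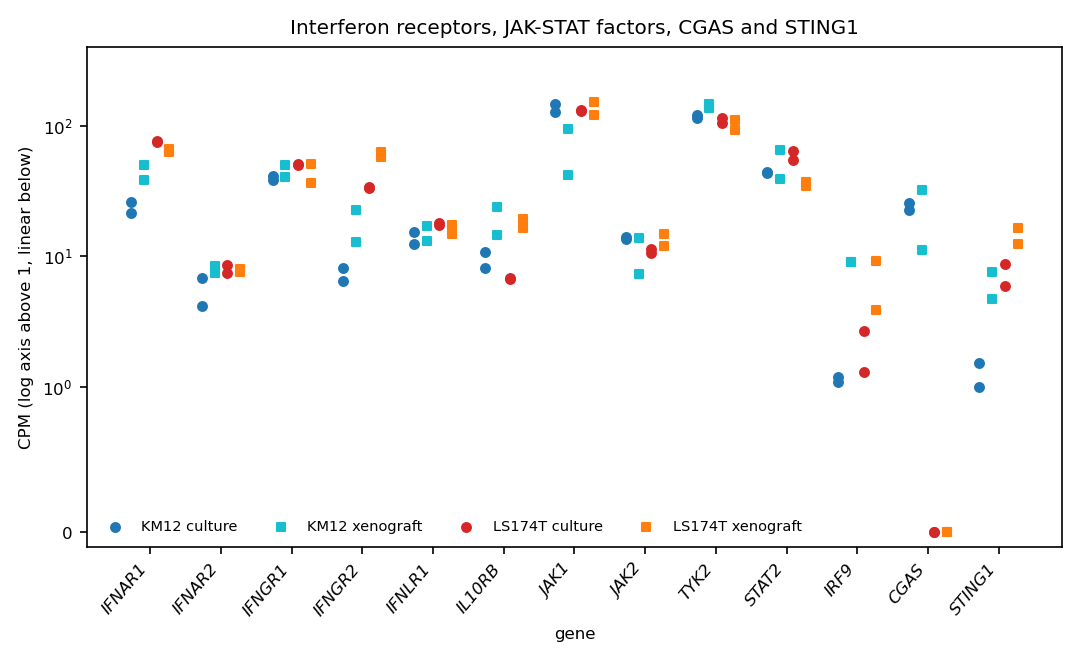
Level in CPM (log axis above 1, linear below) of interferon receptors, JAK-STAT factors, CGAS and STING1 in each library, with circles for cultures and squares for xenografts. IFNAR1 is lowest in the KM12 cultures at 21.4 and 26.1 CPM, IRF9 and STING1 are higher in the xenografts of both lines, and CGAS is at 0 in LS174T.

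Between active GNAS (KM12 parental, LS174T with Dox) and inactive GNAS (KM12 knock-out, LS174T without Dox), paired within line and setting, no member was called: edgeR's quasi-likelihood test gave 0 members higher and 0 lower, as for all tested genes (0% higher and 0% lower). The smallest adjusted p of a member in edgeR was 0.776. An unadjusted p below 0.05 was met by 9 of the 35 members and by a smaller share of all genes, 977 of the 16070. DESeq2 called 1 member, OAS1, as lower with active GNAS (log2 -0.54, adjusted p = 0.0222), limma-voom 0, and edgeR without a filter on low counts 3, all lower. The log2 difference was below 0 for 28 of the 35 members and for 7613 of the 16070 genes, with medians of -0.18 and 0.01. OAS1 was lower in the active library of every pair, at 6.12 against 8.00 CPM in KM12 culture, 18.2 against 26.6 in its xenografts, 176 against 226 in LS174T culture and 41.9 against 74.5 in its xenografts (log2 -0.53 ± 0.11, adjusted p = 0.776).

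By pair, 27, 24, 26 and 19 of the 35 members were lower with active GNAS in KM12 culture, KM12 xenografts, LS174T culture and LS174T xenografts, with median log2 ratios of -0.32, -0.51, -0.11 and -0.02. IFI27, IFI44, IRF1, MX2, OAS1, OAS2, OAS3, OASL, RSAD2 and SAMD9L, 10 members, were lower in all 4 pairs, and 0 were higher in all 4. Neither these counts nor those by pair were made over all tested genes, so they have no background to be read against. The KM12 xenograft pair was the most spread, from -3.01 for SAMD9L to 2.72 for BST2. BST2 read 18.5 CPM in the parental and 2.72 CPM in the knock-out xenograft, a ratio of 6.79 (95% exact interval 5.10 to 9.19), IFITM3 24.5 against 5.00 CPM (4.91, 3.95 to 6.15) and MX1 12.5 against 3.20 CPM (3.90, 2.95 to 5.22). SAMD9L read 2.12 against 18 CPM (0.118, 0.0819 to 0.166). The parental xenograft is also the library with COL3A1 at 220 CPM against 0.291 in the knock-out xenograft, and the part of the fibroblast markers in these ratios was not tested. These intervals cover counting error between 2 libraries and not the spread between tumors.

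**Figure D5:**
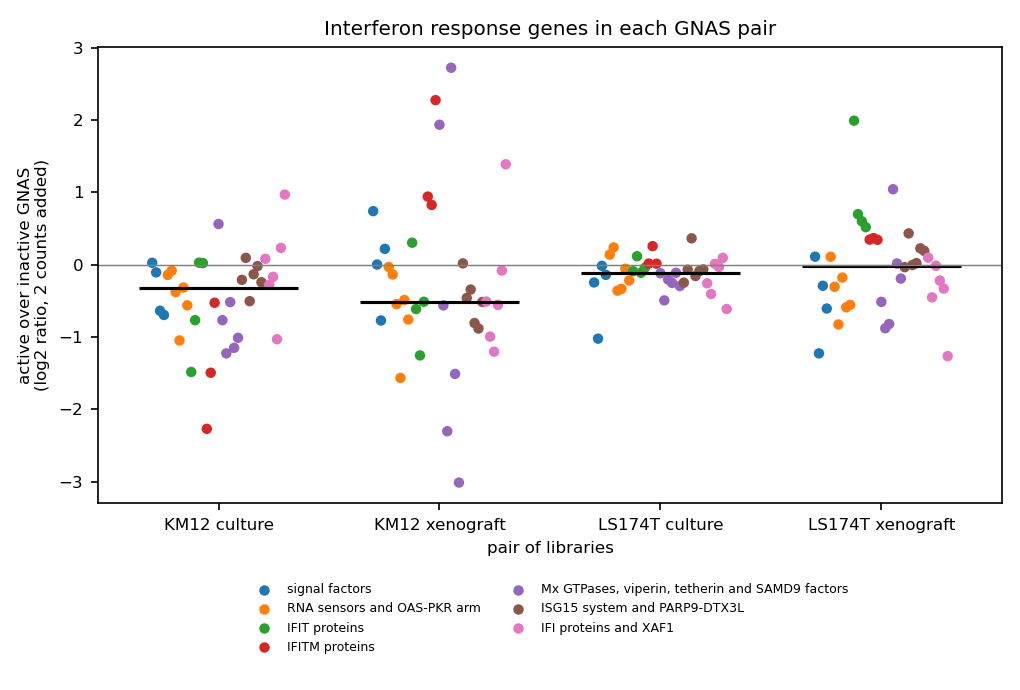
Log2 ratio of the library with active GNAS to that with inactive GNAS, with 2 counts added to each, for the 35 members in each of the 4 pairs; colours show roles and black lines the medians. The medians are -0.32, -0.51, -0.11 and -0.02, and the KM12 xenograft pair spreads the most, from -3.01 to 2.72.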

How the data were processed

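Raw read counts for each human gene, as deposited by the authors in 1 table, were the input. Per the submitters' processing notes, the authors used STAR 2.7.2b and HTSeq 0.11.0 and named the builds hg38 and GRCm39. The annotation release, the strand setting and the handling of mouse reads are not given in the sources used here; the table has 0 mouse identifiers, and reads of mouse origin could enter xenograft counts. Per the labels' protocol, RNA was captured with oligo(dT), and no step marks strand. Besides the overlaps given above, exons of RSAD2 overlap CMPK2 on the other strand. Exons of EIF2AK2, IRF1, MX1, IFITM3, XAF1 and ISG15 also overlap annotated genes on the other strand, and IFIT2 overlaps AL353751.1 on its own. How reads there were split is uncertain.

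Symbols and exons were taken from GENCODE 29 (GRCh38), where 56321 of the 60483 identifiers had a name. Counts were scaled with TMM factors, and CPM uses the scaled totals. Robust quasi-likelihood models were fitted with edgeR 4.0.16 in R 4.3.3 to the 16070 genes that reached 1 CPM in 2 or more libraries. A fit of line and setting had 4 residual degrees of freedom, and the fits blocked by pair, for xenograft against culture and for GNAS, had 3 each. P-values were adjusted by the Benjamini-Hochberg method over all tested genes, and the SE is the log2 difference divided by the root of F. Pairs rest on the line and state (parental, knock-out or Dox), or line and setting, in the labels. Naming a state active or inactive GNAS was a choice made here. Each group has 1 library, so p-values measure only the spread between libraries of different GNAS state, lines or settings. DESeq2 1.42.0, limma 3.58.1 (voom), other scaling factors and filters, and leaving out each library or pair were alternatives. The fits were tested on simulated data. Intervals on ratios of counts are exact at the 95% level and cover counting error only.

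The members, role groups, lists and tests were chosen with earlier results of these data known. By the rule for naming genes, every member is accounted for, and at most 4 per role group and comparison, smallest p first, are chosen for full values; other members and listed genes named beside them were chosen after their values were seen. Of the pathway genes listed, 1 is not reported here.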

Additional observations from a re-analysis of the deposited data

Results flagged for a closer look

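In 21 members the change from culture to xenograft differed between KM12 and LS174T by the test of the difference itself (edgeR's quasi-likelihood test, adjusted p below 0.05). Each value below is the log2 difference, KM12 minus LS174T, ± SE, with 2 libraries of each line in each setting. The OAS and sensor arm gave 8.6 ± 0.83 for OAS2, 5.76 ± 0.47 for OASL, 3.65 ± 0.34 for OAS3, 3.45 ± 0.45 for OAS1 and 1.09 ± 0.27 for IFIH1. The IFIT genes gave 6.19 ± 0.95 for IFIT1, 5.24 ± 0.60 for IFIT3 and 5.04 ± 0.56 for IFIT2. XAF1 gave 8.19 ± 1.07, IFI44L 7.53 ± 0.65, IFI44 5.71 ± 0.48, IFI6 5.52 ± 0.28 and IFI27 2.02 ± 0.46. Among the ISG15 system and its neighbours, HERC5 gave 3.04 ± 0.77, ISG15 2.08 ± 0.20, HERC6 1.97 ± 0.36 and PARP9 1.53 ± 0.36. RSAD2 gave 4.77 ± 1.13, MX1 3.41 ± 0.81 and SAMD9 3.07 ± 0.74. IFITM2 was the 1 member in the other direction, at -4.49 ± 1.16, and rests on 1 count over both KM12 xenografts.

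The adjusted p was 3.16e-04 for IFI6, lowest of the 21, and 0.0393 for IFITM2, highest. OAS1, OAS2, OAS3, OASL, IFIT1, IFIT2, IFIT3, IFI6, IFI44, IFI44L, XAF1 and ISG15 were called in each of the 8 fits that left out 1 library. The other 9 lost the call in 4 (HERC6), 5 (IFIH1, SAMD9), 6 (PARP9, MX1, IFI27, IFITM2) or 7 (RSAD2, HERC5) of the 8, with the highest adjusted p at 0.168 for HERC5 without the KM12 knock-out xenograft and for IFIH1 without the KM12 parental culture. The call was also lost for IFI27 with limma-voom (0.0699), for IFIH1 with no filter on low counts (0.0799) and, with GNAS state as a term in each line, for IFIH1 (0.0623) and HERC5 (0.0529).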

How the results depend on the processing

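Over both lines, xenograft against culture called 2 members with the pair block, 6 with DESeq2, 4 with limma-voom and 16 with cell means and no pair block. Leaving out each pair gave 0 to 2. Leaving out each library gave 7 to 20 calls for KM12 xenografts (14 with all libraries), 16 to 28 for LS174T xenografts (24), 12 to 24 for the difference between the lines (21), 21 to 29 between cultures (25) and 13 to 24 between xenografts (18). For GNAS, 0 members were called by edgeR with the filter, 1 by DESeq2, 3 with no filter on low counts and 2 from the culture pairs alone (OAS1 and IFI27), and 0 in each fit without a pair. The cause of these changes was not tested. For single members, 661 of 682 values under settings other than leaving out libraries kept direction and call, 16 lost the call, 5 gained it and 0 reversed; when libraries or pairs were left out, 721 of 860 kept both, 139 lost the call and 0 reversed. RLE in place of TMM factors moved the median of all genes by at most 0.0307 in log2 in size (-0.0307, between cultures). Counts of 1 to 6 limit HERC5, XAF1, IFITM2 and IFI44L.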

Other observations

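Of 7 tested genes that restrain interferon signalling, 4 fell in KM12 xenografts and 5 in LS174T xenografts, 0 rose in either, and 0 passed the test of the difference between the lines. Of all tested genes, 15.6% and 22.4% were called lower in these comparisons. ADAR, which edits double-stranded RNA and keeps it from the sensors, read 367 and 402 CPM in the KM12 cultures, 225 and 172 CPM in their xenografts, 424 and 418 CPM in the LS174T cultures and 220 and 201.4 CPM in theirs. It fell by 0.95 on the log2 scale in KM12 (SE 0.15; edgeR, adjusted p = 0.0042), and its LS174T difference was -0.998 ± 0.151 (adjusted p = 0.00161). TRIM21, a ubiquitin ligase and antibody receptor, read 18.4 and 21.9, 10.9 and 11.1, 58.5 and 47.4, and 12.9 and 17.1 CPM in the same order, with log2 differences of -0.87 ± 0.20 in KM12 and -1.82 ± 0.20 in LS174T (adjusted p = 0.0151 and 5.20e-04). SOCS3, an inhibitor of JAK kinases, was at 1.43 to 3.85 CPM in KM12 and at most 0.298 CPM in LS174T, with 0 counts in the LS174T Dox (+) xenograft.

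Of 29 tested interferon-stimulated genes outside the 35, 7 rose and 3 fell in KM12 xenografts, 0 rose and 16 fell in LS174T xenografts, and 8 were higher and 0 lower in KM12 by the test of the difference. The shares of all tested genes were 14.7% higher and 15.6% lower, 23.7% and 22.4%, and 6.15% and 7.93%. DDX60, a helicase that aids RNA sensing, read 4.78 and 7.29 CPM in the KM12 cultures and 10.5 and 18.8 CPM in their xenografts, against 33.9 and 33.8 CPM and 22.4 and 15 CPM in LS174T (difference of the responses 2.13 ± 0.47 in log2; edgeR, adjusted p = 0.0234). TRIM22, an antiviral ubiquitin ligase, had 1377 counts over the LS174T cultures and 1 over those of KM12, a ratio of 1387 (95% exact interval 248.5 to 54820), and 287 against 3 in the xenografts (80.5, 27.3 to 393). UBE2L6, the enzyme that hands ISG15 to its ligase, fell in the xenografts of both lines, with log2 differences of -0.85 ± 0.23 in KM12 and -0.77 ± 0.23 in LS174T (adjusted p = 0.0265 and 0.0246).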
